A study of Mus musculus with 4 samples.

Results

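Isolated CTCF sites in mouse liver are described here, which are sites with no other listed site near them on their chromosome. All sites listed at ZT0 or at ZT12 were merged where they overlapped, and a site was called isolated when its midpoint lay over 300 kb from the midpoint of the nearest other site. Of 11125 merged sites on the 19 autosomes, 536 were isolated and 10589 were not, and the latter are called the other sites. Isolated sites were thus chosen by the listed positions themselves, so their spacing is a description and not a finding. CTCF ChIP-seq had been done on liver from wild-type C57BL/6 males aged 8 weeks per the labels, kept in 12 h of light and 12 h of darkness with food at all times. ZT0 is the time when lights go on and ZT12 the time when they go off, and there were 2 biological replicates at each, which the study made from pooled livers. The deposited data are 1 list of positions for each time point, with 10113 sites at ZT0 and 6799 at ZT12, and per the labels each list holds both replicates after a motif search. The lists hold fewer sites than the study describes, and how they were narrowed was not tested, so isolated means far from other listed sites and not from every CTCF site in liver, and each shared fraction holds for these lists alone. The lists give no height, strand or replicate, so neither sequencing depth nor the spread between mice can be seen, and every interval given is a 95% interval that covers counting error only.

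CTCF is a zinc finger protein that binds a long, well-conserved DNA motif. It halts the cohesin complex as that complex extrudes chromatin loops, and pairs of CTCF sites often mark the ends of loops and the borders of topologically associating domains. It also binds at many promoters, and domain borders tend to lie in regions rich in genes.

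Sequences of 8 of the most isolated sites are shown first, because they let the reader see what a site with no listed neighbour for several Mb looks like. The genome build is mm9, each sequence runs 5′ to 3′ on the strand given, and capitals mark the 20 bp that scored best against the CTCF motif. That motif was learned from the other sites only, and its preferred letters were GTGGCCACCAGGGGGCGCCA as learned on even-numbered chromosomes and TGGCCACCAGGGGGCGCCAG as learned on odd-numbered ones. Both describe the same motif with a shift of 1 bp, and both strands were searched.
Cdh10 intron, ZT0-only, chr15:18751281-18751360, plus strand: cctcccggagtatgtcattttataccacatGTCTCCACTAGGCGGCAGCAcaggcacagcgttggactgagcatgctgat
Dsel region, ZT0-only, chr1:114352776-114352855, plus strand: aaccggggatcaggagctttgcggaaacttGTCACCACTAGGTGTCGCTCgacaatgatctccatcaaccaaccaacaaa
Kynu intron, shared, chr2:43529247-43529326, plus strand: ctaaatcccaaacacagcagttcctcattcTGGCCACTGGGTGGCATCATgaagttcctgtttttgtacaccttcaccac
Gm3095 region, ZT0-only, below the limit, chr14:4052893-4052972, minus strand: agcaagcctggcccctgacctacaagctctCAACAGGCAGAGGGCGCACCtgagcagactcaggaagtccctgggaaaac
Reg3g region, ZT0-only, chr6:78463014-78463093, minus strand: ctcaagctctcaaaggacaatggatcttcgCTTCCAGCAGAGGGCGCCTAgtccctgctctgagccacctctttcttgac
Pcdh10 neighbour, ZT0-only, chr3:45179757-45179836, minus strand: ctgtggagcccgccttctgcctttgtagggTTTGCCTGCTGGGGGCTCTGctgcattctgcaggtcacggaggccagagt
Gm3662 region, ZT12-only, chr8:103296774-103296853, minus strand: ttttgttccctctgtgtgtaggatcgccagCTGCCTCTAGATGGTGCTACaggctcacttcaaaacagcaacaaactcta
D1Ertd622e region, ZT0-only, chr1:99585505-99585584, minus strand: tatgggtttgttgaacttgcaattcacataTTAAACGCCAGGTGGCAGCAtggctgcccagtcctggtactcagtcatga
All but the Gm3095 sequence passed the limit for a motif match. In the core of the motif the letters AGGNGGC, searched on both strands, were found in 249 of the 536 isolated sites (46.5%, 42.3 to 50.7%) and in 57.1% of other sites, while 10.5% of windows of the same width 5 kb from isolated sites and 20.2% of those from other sites held them. The letters AGANGGC, which do not overlap with the first at the same position, were found in 43.7% of isolated sites and 44.0% of other sites, against 14.6% and 23.8% of the windows. The first spelling was thus scarcer in isolated sites, and so were both spellings in the windows around them. Windows of other sites can fall on a listed neighbour, which the rule keeps away from isolated sites, and without the windows that overlapped one the values for other sites were 19.8% and 23.6%. Around sites with a neighbour at 100 to 300 kb, where no window overlapped a listed site, they were 15.2% and 19.8%. These letters were picked after the matches had been seen.

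Next come 4 of the isolated sites with the highest motif scores, together with an intronic site of Nuf2 in which 15 matches follow each other in a repeat. They show that a site far from any other listed site can carry a motif close to the preferred letters.
Arid1b region, shared, chr17:4778335-4778414, plus strand: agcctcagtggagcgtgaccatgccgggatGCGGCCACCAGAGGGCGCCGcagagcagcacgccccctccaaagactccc
Fam110c region, ZT0-only, chr12:31801123-31801202, plus strand: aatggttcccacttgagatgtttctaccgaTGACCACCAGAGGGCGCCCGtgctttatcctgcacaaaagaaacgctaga
4930555F03Rik region, ZT12-only, chr8:51377654-51377733, plus strand: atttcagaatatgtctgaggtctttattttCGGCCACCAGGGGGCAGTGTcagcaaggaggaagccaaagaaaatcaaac
Klf14 region, ZT0-only, chr6:31025897-31025976, plus strand: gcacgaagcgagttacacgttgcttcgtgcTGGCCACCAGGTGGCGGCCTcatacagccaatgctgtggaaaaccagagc
Nuf2 intron, shared, the highest-scoring of its matches, chr1:171447753-171447832, plus strand: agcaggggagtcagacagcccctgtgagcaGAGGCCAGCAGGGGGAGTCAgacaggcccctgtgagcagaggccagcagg
The Arid1b sequence scored 25.8 against a highest possible score of 27.2 to 27.3, where scores are log2 odds against the base composition of windows 5 kb from the sites. The site of the Nuf2 intron was listed at both times, with a width of 561 bp at ZT0 and 681 bp at ZT12.

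Isolated sites at the start of a protein-coding gene are shown by their best match alone. These are the 10 most isolated of the 54 isolated sites that lay within 1 kb of such a start.
Slitrk5, shared, chr14:112074069-112074088, minus strand: TGGCCGGTAGGTGGCAGCCG
Ndufaf4, shared, chr4:24825171-24825190, plus strand: CGGCCACCAGGGGGCGACGA
Styk1, shared, chr6:131303858-131303877, minus strand: CTGCCAGGCGGTGGCACTGT
Csmd3, ZT0-only, chr15:48624449-48624468, minus strand: ATGGCCAGTAGATGGCGCAA
Crbn, ZT0-only, chr6:106750141-106750160, minus strand: GAGCCGCCAGGGGGCGCTGT
Mmaa, shared, chr8:81818712-81818731, plus strand: GAGCCTCCAGGGGGCGCCCC
Rprm, shared, chr2:53938050-53938069, minus strand: TCACCAGCAGGGGCCGCTGT
Nbn, shared, chr4:15885039-15885058, plus strand: TCAGCACTAGGTGGCGCCCC
Jag1, shared, below the limit, chr2:136943199-136943218, plus strand: CGGGCACCCGGGGGCTCAGC
Spry1, ZT0-only, chr3:37539806-37539825, plus strand: CGCGGCACCCGATGGCGCTG
Of these genes, 9 had a match over the limit and Jag1 did not, with a best score of 8.75.

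The distance from an isolated site to its nearest neighbour had a median of 476 kb and ranged from 300.037 kb to 5.64 Mb, and 66 of the 536 lay over 1 Mb from any other listed site. Just inside the limit were a pair of sites on chromosome 7 that are each other's neighbours at 300.037 kb, both ZT0-only, and a ZT12-only site on chromosome 14 at 300.075 kb. Just outside it were a pair on chromosome 2 at 299.642 kb, one of them shared and at the start of Itga8, and a ZT0-only site on chromosome 11 at 298.311 kb. The distances form a continuous range, and the limit does not fall at a break in it. Of the 536 isolated sites, 238 (44.4%) had no isolated site as a neighbour, and the remaining 298 followed each other in 108 runs of 2 to 6 sites. Unknown bases of the assembly lay between 66 isolated sites (12.3%) and a neighbour, and at 20 sites they made up over 5% of the surrounding 600 kb. With unknown bases taken off the distances 533 of the 536 remained over the limit. At the ends of chromosomes 13 sites had a neighbour on one side only.

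**Figure D1:**
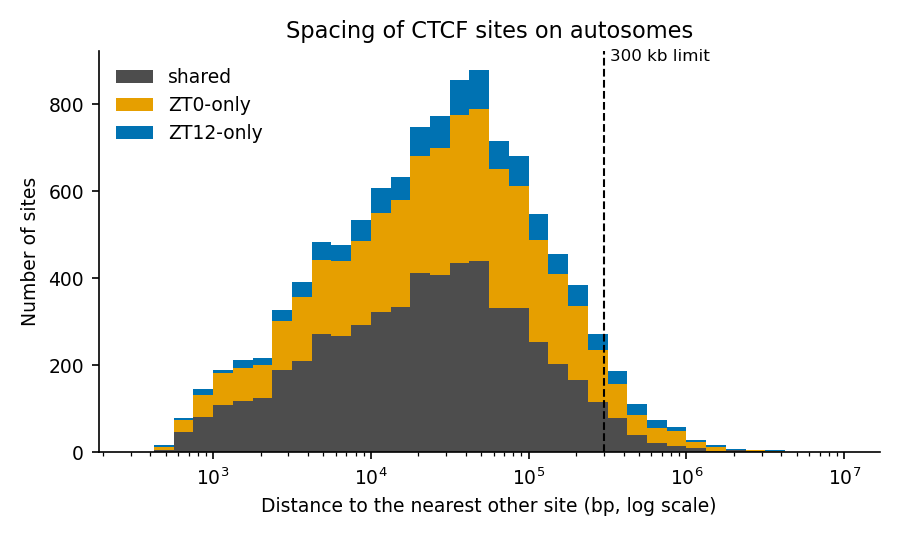
Number of CTCF sites on autosomes (vertical axis) by distance to the nearest other site in bp (horizontal axis, log scale), stacked by whether a site was listed at both times, at ZT0 only or at ZT12 only. The dashed line is the 300 kb limit, with the 536 isolated sites to its right in the tail of a single broad distribution.

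A smaller fraction of isolated than of other sites was listed at both times. Of the 536, 195 were shared, 245 were ZT0-only and 96 were ZT12-only, where shared means an overlap of at least 1 bp between the lists. The shared fraction was 36.4% (95% Wilson interval 32.4 to 40.5%) in isolated sites and 51.6% (50.6 to 52.5%) in the other sites, against 50.8% of all autosomal sites. The difference of -15.2 percentage points had a 95% Newcombe interval of -19.3 to -10.9. Without the 66 sites that have unknown bases before a neighbour, the shared fraction of isolated sites was 37.0%. ZT0-only sites made up 45.7% of isolated and 39.0% of other sites, with 39.4% over all sites. ZT12-only sites made up 17.9% of isolated sites (14.9 to 21.4%) and 9.39% of other sites (8.85 to 9.96%), with 9.8% over all sites. Both kinds of site listed at a single time were therefore more frequent among isolated than among other sites. In proportion the excess was larger for the ZT12-only kind. At 100 to 300 kb from a neighbour, 43.8% of sites were ZT0-only (41.4 to 46.3%) and 11.5% ZT12-only (10.1 to 13.2%). The first interval overlapped that of isolated sites, which was 41.5 to 49.9%, and the second was apart from theirs.

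Seen from each list, 195 of 440 isolated sites of ZT0 were found again at ZT12 (44.3%, 39.7 to 49.0%), against 56.9% of other ZT0 sites. From the ZT12 list, 195 of 291 isolated sites were found at ZT0 (67.0%, 61.4 to 72.2%), against 84.6% of other ZT12 sites. Isolated sites were thus less shared than other sites whichever list was the starting point, although the lists differ in length. With a neighbour at 100 to 300 kb, 50.5% of ZT0 sites (47.9 to 53.0%) and 79.5% of ZT12 sites (76.7 to 81.9%) were shared. The ZT0 interval overlapped that of isolated sites, and the ZT12 interval was apart from theirs. By distance to the nearest neighbour, the shared fraction was 56.0% up to 10 kb, 51.2% from 10 to 100 kb, 44.6% from 100 to 300 kb and 36.4% beyond that. Within the isolated sites it did not follow distance, with 42.0% (124 of 295) at 300 to 500 kb, 26.3% (46 of 175) at 500 kb to 1 Mb and 37.9% (25 of 66) over 1 Mb. The last of these rests on few sites, with an interval of 27.1 to 49.9% that overlaps both of the others. The 42.0% at 300 to 500 kb had an interval of 36.5 to 47.7%, which overlaps the 42.2 to 47.1% of sites at 100 to 300 kb.

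**Figure D2:**
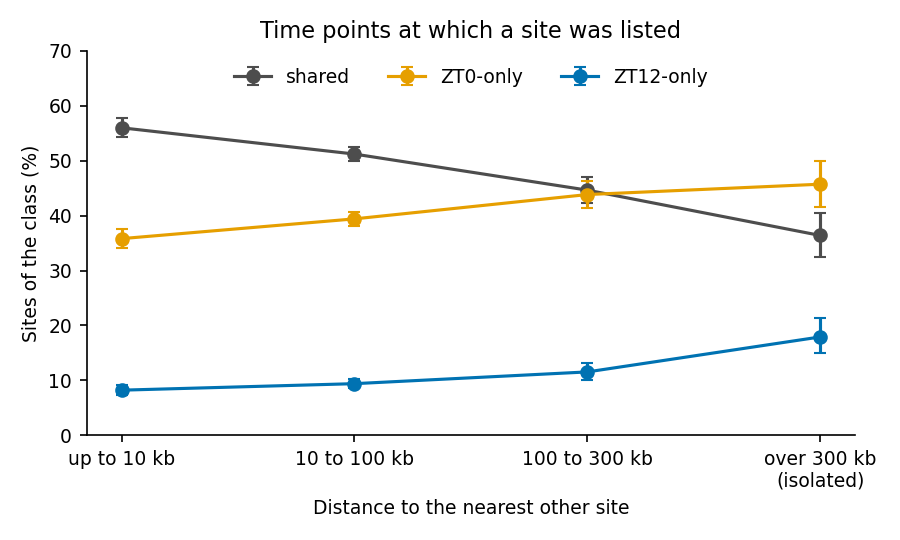
Percent of sites listed at both times, at ZT0 only and at ZT12 only (vertical axis) in 4 classes of distance to the nearest other site (horizontal axis), with 95% Wilson intervals that cover counting error only. The shared fraction is lowest, at 36.4%, and the ZT12-only fraction highest, at 17.9%, in isolated sites.

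Isolated sites were also narrower than the other sites, and narrow sites were less often shared. At ZT0 the median width was 286.5 bp (95% order-statistic interval 279 to 296) in 440 isolated sites and 314 bp (312 to 316) in other sites. At ZT12 it was 256 bp (249 to 265) in 291 isolated sites and 286 bp (284 to 289) in other sites. Sites with a neighbour at 100 to 300 kb lay between, with 298 bp (291 to 303) at ZT0 and 276 bp (272 to 283) at ZT12. Their interval overlapped that of isolated sites at ZT0 and was apart from it at ZT12. Shared isolated sites were the widest of them, with medians of 321 bp at ZT0 and 265 bp at ZT12 against 347 and 295 bp in shared sites elsewhere. The intervals of these medians overlapped at ZT0 and were apart at ZT12. Shared sites with a neighbour at 100 to 300 kb had medians of 329 bp (323 to 338) and 287 bp (281 to 293). Both intervals overlapped those of shared isolated sites, which were 302 to 347 bp and 254 to 282 bp. Sites listed once had medians of 270 against 278 bp for ZT0-only and 245.5 against 250 bp for ZT12-only sites, and in both cases the intervals of the medians overlapped. Sites listed once with a neighbour at 100 to 300 kb were no wider, with 265.5 and 243 bp. Among shared isolated sites of unequal width, 133 of 193 were narrower at ZT12 (68.9%, 62.1 to 75.0%), against 71.6% of the other sites. A smaller width in the ZT12 list was therefore of like frequency in both. The whole ZT12 list was narrower, with a median of 285 bp against 313 bp at ZT0. How far peak calling or depth enters this was not tested. Over all shared sites compared, including those wider or equal at ZT12, the median change from ZT0 to ZT12 was -40 bp in isolated and -47 bp in other sites.

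Because width moves with sharing, the shared fraction was compared within classes of width. Of isolated ZT0 sites up to 260 bp wide 27.7% were shared, against 32.1% of other sites of that width, and of those over 380 bp wide 76.8% against 82.4%. The isolated sites were below the others in each of the 4 width classes at ZT0, although their intervals overlapped in all but the class of 261 to 313 bp, where 38.5% and 49.6% were shared. Of isolated ZT12 sites up to 240 bp wide 57.5% were shared, against 73.9%, and of those over 346 bp wide 90.0% against 95.2%. Isolated sites were again below in each class, and the intervals were apart in the 3 narrower ones. When the other sites were weighted to the isolated sites' mix of 20 classes of width and GC content, their shared fraction was 49.4% for ZT0 and 75.7% for ZT12 sites, between the unweighted values and the 44.3% and 67.0% of isolated sites. How far peak height, which the lists do not give, moves with these values was not tested.

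**Figure D3:**
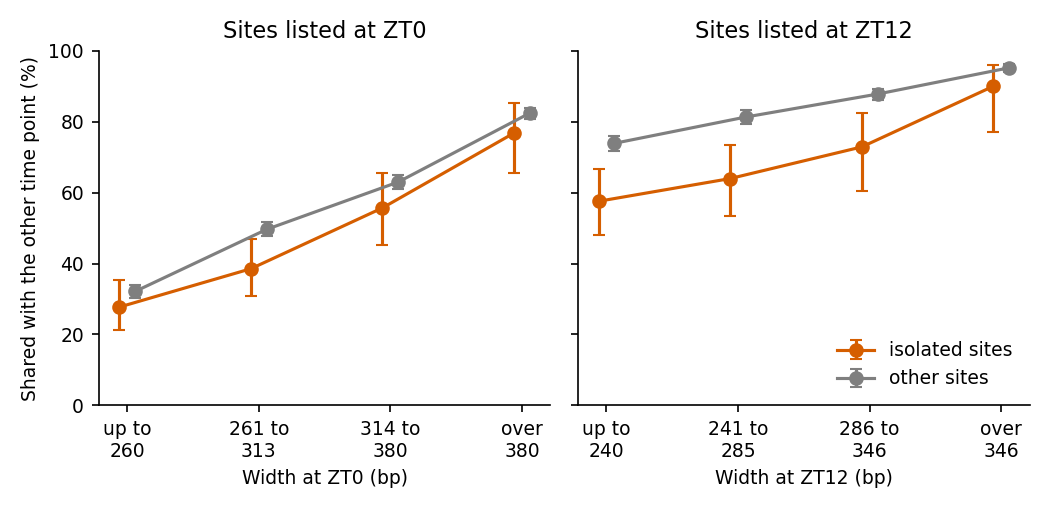
Percent of sites shared with the other time point (vertical axis) by width class in bp (horizontal axis) for sites listed at ZT0 (left) and at ZT12 (right), in isolated and other sites with 95% Wilson intervals that cover counting error only. Sharing rises with width in both, and isolated sites lie below the others in every class, from 27.7% against 32.1% in the narrowest ZT0 class to 90.0% against 95.2% in the widest ZT12 class.

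In base composition isolated sites were poorer in GC. The median GC content of the 200 bp around the midpoint was 49.0% (48.5 to 49.5%) in isolated and 53.0% in other sites, and that of the surrounding 100 kb was 41.2% and 46.6%. Sites with a neighbour at 100 to 300 kb lay between, with medians of 50.5% (50 to 51%) and 43.7%. Among isolated sites the ZT12-only ones were the poorest, with a median of 45.5% (44.0 to 47.0%), against 48.5% in ZT0-only and 51.0% in shared sites. The same order was seen in other sites, with 49.0%, 51.5% and 54.0%. It was also seen with a neighbour at 100 to 300 kb, with 47.0%, 49.0% and 52.5%. Shared fractions rose with GC, from 24.7% of isolated sites with up to 47% GC to 59.1% of those over 58.5%, while other sites rose from 31.2% to 65.2%. At a like GC content isolated sites were thus less often shared in both of these classes, though the intervals overlapped.

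The CTCF motif was nearly as frequent in isolated sites as elsewhere. A match, set at the score that a fraction of 0.0001 of positions in windows 5 kb away exceeds, was present in 493 of 536 isolated sites (92.0%, 89.4 to 94.0%) and in 93.6% of other sites, with 93.5% over all sites. The difference of -1.62 points had an interval of -4.27 to 0.45, which includes 0. Windows of the same width 5 kb to either side of isolated sites held a match in 25 of 1072 cases (2.33%, 1.58 to 3.42%), against 6.06% around other sites, 5.47% without the windows that overlapped a listed site, and 3.52% (2.94 to 4.21%) around sites with a neighbour at 100 to 300 kb. The median best score was 18.2 in isolated and 18.3 in other sites, and with the stricter limit of 0.00001 the fractions were 43.7% and 46.7%. Matches also lay equally close to the midpoint, with a median distance of 25.5 bp in isolated and 26 bp in other sites. On strand, 268 matches were on plus and 225 on minus. Since the lists were made after a motif search, a high frequency of matches may be a property of the lists, and its part was not tested.

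Among the isolated sites the shared ones had the highest median motif score. It was 19.1 (18.3 to 19.5), against 17.7 (17.3 to 18.2) in ZT0-only and 17.5 (16.3 to 18.9) in ZT12-only sites, whose interval overlapped with that of shared sites. A match over the stricter limit was found in 106 of 195 shared sites (54.4%), in 90 of 245 ZT0-only sites (36.7%) and in 38 of 96 ZT12-only sites (39.6%). The same order of shared over single-time sites was seen in other sites, with 50.7%, 42.1% and 43.2%. No match was found in 43 isolated sites, of which 10 were shared, 23 ZT0-only and 10 ZT12-only. The shared part was 23.3% (13.2 to 37.7%), against 38.3% (34.8 to 42.1%) of other sites without a match, and the intervals overlapped. Of the 43, 12 lay at a transcription start, as did 51 of the 493 isolated sites with a match. One of the lowest scores, -7.12, belonged to a ZT12-only site in an intron of Anks1b with 26.5% GC.

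**Figure D4:**
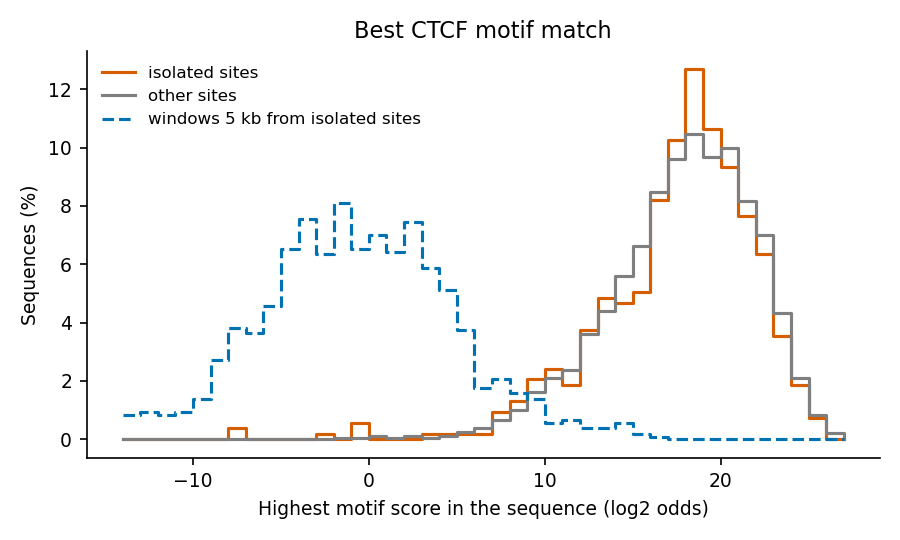
Percent of sequences (vertical axis) by the highest motif score in the sequence (horizontal axis, log2 odds) for isolated sites, other sites and windows of the same width 5 kb from isolated sites. Isolated and other sites have nearly the same distribution, with medians of 18.2 and 18.3, and the windows lie mostly below 10.

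Outside the listed sites, strong CTCF motifs were scarcer near isolated sites. A match over the stricter limit lay elsewhere within 300 kb of 426 isolated sites (79.5%, 75.9 to 82.7%) and of 98.8% of other sites. Listed sites make up part of the value for other sites, as the rule leaves no listed site within 300 kb of an isolated one. Counting only matches that lie in no listed site, the median was 3.33 per Mb around isolated and 6.67 per Mb around other sites. It was 5 per Mb around sites with a neighbour at 100 to 300 kb and 8.33 per Mb where a neighbour lay within 10 kb. The 79.5% of isolated sites refers only to matches that lie in no listed site. These are motif matches in the sequence and say nothing on whether CTCF binds there.

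Isolated sites lay in regions with few genes. Within 300 kb of the midpoint there was a median of 3 starts of protein-coding genes (quartiles 1 and 5), against 9 (5 and 15) around other sites. No such start was found within 300 kb of 67 isolated sites (12.5%, 9.96 to 15.6%), against 0.888% of other sites and 1.45% of all sites. The nearest start was at a median of 59.2 kb from an isolated site and 15.6 kb from another site, and 190 isolated sites (35.4%) had none within 100 kb, against 8.42% of other sites. Sites with a neighbour at 100 to 300 kb lay between, with a median of 6 starts (3 and 9) and the nearest start at 28.8 kb. Of them 2.72% had no start within 300 kb and 19.2% had none within 100 kb. The median number of starts was lower around isolated than around other sites on each of the 19 autosomes, and the shared fraction moved with gene number. It was 22.4% of isolated sites with no gene in reach, 35.9% with 1 to 2 genes, 38.7% with 3 to 5 and 47.5% with 6 to 10, against 30.9%, 41.8%, 45.8% and 52.3% in other sites, and in each of these classes the intervals of isolated and other sites overlapped. With 11 or more genes it was 5 of 21 isolated sites (23.8%, 10.6 to 45.1%), against 56.0%.

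**Figure D5:**
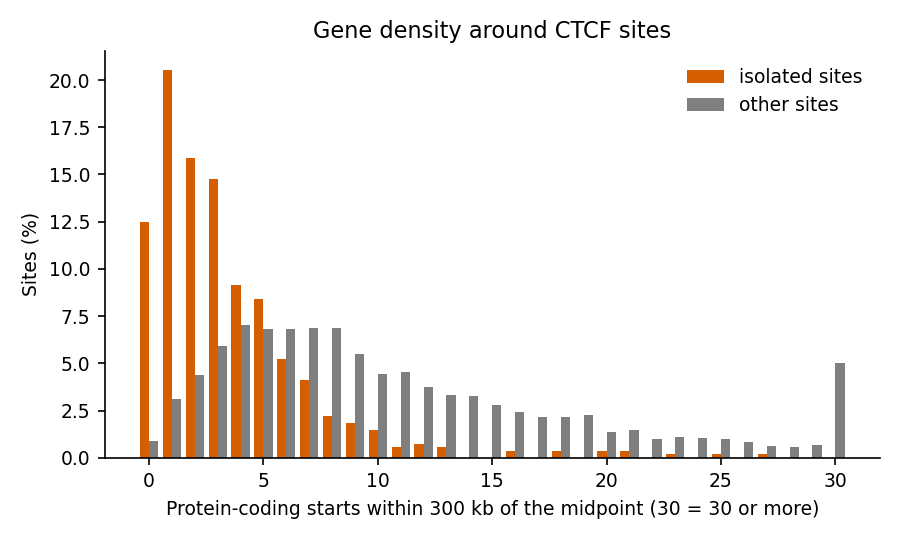
Percent of sites (vertical axis) by the number of protein-coding gene starts within 300 kb of the midpoint (horizontal axis, with 30 standing for 30 or more) for isolated and other sites. Isolated sites crowd at 0 to 5 genes, with a median of 3 and 12.5% at 0, and other sites have a median of 9.

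By annotation, 63 isolated sites (11.8%, 9.30 to 14.8%) lay within 1 kb of a transcription start, against 19.6% of other and 19.2% of all sites. Outside genes lay 297 isolated sites (55.4%, 51.2 to 59.6%), against 43.1% of other and 43.7% of all sites. Introns held 164 (30.6% against 31.9%) and other exons 12 (2.24% against 5.41%). Starts and exons were thus less frequent and intergenic positions more frequent, while the intronic fraction differed by -1.32 points with an interval of -5.18 to 2.80. With a neighbour at 100 to 300 kb, 17.0% of sites lay at starts and 46.1% were intergenic, between isolated and other sites. Other exons held 3.21% of them (2.46 to 4.18%), which overlaps the 1.29 to 3.87% of isolated sites. The isolated sites at starts were shared in 34 of 63 cases (54.0%, 41.8 to 65.7%), close to the 59.6% of other sites at starts. Of the 63, 2 were ZT12-only (3.17%, 0.875 to 10.9%), against 94 of the 473 isolated sites elsewhere (19.9%, 16.5 to 23.7%). In other sites these fractions were 4.82% and 10.5%, so ZT12-only sites were less frequent at starts there as well. In intergenic positions 32.7% of isolated sites were shared (27.6 to 38.2%), against 51.9% of other sites (50.4 to 53.3%).

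Among genes whose start carries an isolated site, Slitrk5, a neuronal membrane protein with leucine-rich repeats, had the most remote one, at 3117 kb from the nearest site. It was shared, 335 bp wide at ZT0 and 255 bp at ZT12. Ndufaf4, an assembly factor of mitochondrial complex I, followed at 2421 kb and its site was wider at ZT12, with 427 bp against 348 bp. Styk1, a kinase-like membrane protein, had a shared site at 1794 kb. Csmd3, a large membrane protein of neurons, and Crbn, the substrate receptor of a ubiquitin ligase, had ZT0-only sites at 1469 and 1266 kb. Mmaa, needed for the use of cobalamin in mitochondria, Rprm, a cell cycle inhibitor, and Nbn, a DNA repair protein, had shared sites at 1198, 1072 and 1036 kb. Jag1, a Notch ligand, had a shared site at 916 kb that was 464 bp wide at ZT0 and 467 bp at ZT12, and Spry1, an inhibitor of growth factor signalling, a ZT0-only site at 800 kb. Of the 10 sites 7 were shared and none was ZT12-only, and of all 54 at protein-coding starts 30 were shared, 23 ZT0-only and 1 ZT12-only.

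Among the 10 most isolated sites of all, 3 were shared, 6 were ZT0-only and 1 was ZT12-only. The most remote was the ZT0-only site in an intron of Cdh10, a neuronal cadherin, 2.59 kb from the start and 5640 kb from the nearest other site, with a width of 230 bp. The ZT0-only site of the Dsel region had no gene start within 300 kb and was 376 bp wide, the widest of the 10 at ZT0. A shared site in an intron of Kynu, an enzyme of tryptophan breakdown, was 268 bp wide at ZT0 and 245 bp at ZT12, and a shared site in an intron of Rttn, a centriole protein, 267 and 212 bp. The Rttn site is the last site of chromosome 18 and has a neighbour on one side only. The Gm3095 site on chromosome 14 is the first site of its chromosome, has a neighbour on one side only and was the narrowest of the 10, with 131 bp. Near Pcdh10, a protocadherin, the ZT0-only site lay 2.49 kb from the start and its score of 10.97 only just passed the limit. The ZT12-only site, 272 bp wide, lay 154 kb from Gm3662.

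Isolated sites inside protein-coding genes lay in long ones. They numbered 195 (36.4% of isolated sites, against 45.7% of other sites inside such genes), and the median length of the gene was 170 kb (138 to 213 kb), against 52.2 kb for other sites. For sites with a neighbour at 100 to 300 kb it was 120 kb, with an interval of 111 to 138 kb that meets that of isolated sites. Genes over 100 kb held 130 of the 195 (66.7%, 59.8 to 72.9%), against 33.3%, and genes over 500 kb held 17.9% against 5.25%. A long gene offers more room for a site, and the part of gene length in these values was not tested. There were 3 genes with 2 isolated sites each: Anks1b, a postsynaptic scaffold protein, Cacna2d3, a calcium channel subunit, and Fgfr2, a growth factor receptor. Both Cacna2d3 sites were shared, with widths of 357 and 228 bp at ZT0 and ZT12 for one and 398 and 199 bp for the other. The Fgfr2 pair depends on an annotation that gives this gene a length of 3009 kb and spans other genes, such as Gpr26 and Cpxm2, which were the nearest to these sites.

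By nearest gene, few isolated sites belonged to the gene families looked at. Families of cell adhesion were represented by 4 sites at cadherins and protocadherins (Cdh6, Cdh10, Pcdh10 and Pcdh15) and 3 at contactins and related genes (Cntn3, Cntn5 and Cntnap4), or 0.746% and 0.560% of isolated sites against 0.123% and 0.0567% of other sites. Glutamate receptor genes were nearest to 3 sites, those of Grik1, Grin2a and Grm8 (0.560% against 0.132%). Olfactory receptors, which make up 5.16% of protein-coding genes, were nearest to 5 isolated sites (0.933%) and 0.302% of other sites. Vomeronasal receptors, which make up 1.53% of these genes, were nearest to 3 (0.560% against 0.0756%). The list called hepatocyte genes here holds 136 genes, namely secreted protein genes such as Alb, Cps1, and genes with Cyp and Ugt names. Hepatocyte genes were nearest to 2 isolated sites (0.373% against 0.567%). These were a ZT12-only site 518 kb from Cps1, the first enzyme of the urea cycle, and a ZT0-only site 41.7 kb from Cyp2j5, a cytochrome P450. Core clock genes were nearest to 1, a ZT0-only site 223 bp wide in an intron of Rora, a nuclear receptor that activates Arntl, with a score of 9.59 and thus no match (0.187% against 0.0756%). Of protein-coding genes, cadherins and protocadherins make up 0.266%, contactins and related genes 0.084% and glutamate receptor genes 0.121%. Hepatocyte genes make up 0.635% and core clock genes 0.0607%. All the site counts are small, and each site is counted by its nearest start, so genes that lie far from others take up more sites.

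Across chromosomes, the isolated part of all sites ranged from 2.28% on chromosome 11, the chromosome densest in sites with 8.11 per Mb, to 9.77% on chromosome 13, with 3.34 per Mb. Chromosome 1 held the most isolated sites, 46. A lower shared fraction in isolated than in other sites was found on 17 of 19 autosomes, and on chromosomes 13 and 14 isolated sites were the more shared, by 3.28 and 3.64 points. ZT12-only sites were the more frequent among isolated sites on 17 of 19. Width at ZT0 was lower in isolated sites on 17 autosomes, higher on 1 and equal on 1, and width at ZT12 was lower on 16. GC content was lower on all 19, and the motif fraction on 14. With 13 to 46 isolated sites per autosome, the fractions of a single chromosome carry wide counting error.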

How the data were processed

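ChIP-seq against CTCF was analysed from 4 liver samples, 2 biological replicates each at ZT0 and ZT12. The authors aligned reads to mm9 (NCBIM37) with Bowtie2, kept confidently mapped reads (SAMtools), discarded PCR duplicates (Picard) and ran MACS2 at default settings, from which they deposited 1 list of positions (start and end) per time point. How replicates were joined is not given in the sources used here, and with no reads or replicates in the lists, depth is unknown and no test over mice was possible. Sites are not replicates, so no p-value was computed.

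Lists were merged by overlap of at least 1 bp on 19 autosomes, and distances were taken between midpoints. A 20 bp weight matrix was learned from non-isolated sites in 3 rounds, starting from the 12-mer most enriched over windows 5 kb away, with odd-numbered chromosomes scored by the matrix of even-numbered ones and the reverse. Genes come from GENCODE vM1 on NCBIM37, and gene density counts protein-coding starts within 300 kb. Medians carry order-statistic intervals, percentages Wilson and differences Newcombe intervals (95%). Genes named are those of the 10 most isolated sites, of the 10 most isolated sites within 1 kb of a protein-coding start, of genes with 2 or more isolated sites and of gene families. Single sites described are also those with the highest scores or most matches and the 3 nearest the limit on either side. Members, lists and comparisons were chosen with earlier results of these data known. Merging, spacing and motif search were tested on simulated data. Python 3.11.15, NumPy 2.4.6, pandas 2.3.3, SciPy 1.17.1, statsmodels 0.14.6 and pysam 0.24.0 were used.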

Additional observations from a re-analysis of the deposited data

Results flagged for a closer look

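Chromosome X, which was kept out of the comparisons, held 98 merged sites, of which 28 were isolated by the same limit of 300 kb (28.6%, 95% Wilson interval 20.6 to 38.2%). This is above the 9.77% of chromosome 13, the highest of the autosomes. Of the 28, 7 were shared and 26 carried a motif match, with a median width of 261.5 bp in the ZT0 and 250 bp in the ZT12 list. It is listed because these sites lie outside the comparisons.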

How the results depend on the processing

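Of 43 alternative settings over all results, 31 left the value within the counting error of the main one (counts within 1.5 times), 12 moved it, and none of the 35 that also give a value for other sites turned the direction of the difference. With a limit of 200 kb there were 1000 isolated sites and with 500 kb 241. At 500 kb 29.5% of isolated sites were shared. Among isolated sites at least as wide as the list median at either time, 63.2% were shared, against 72.7% of other sites. This setting was added after seeing the data. A shared site could pass by its width at either time and a single-time site only by its own. The setting thus favours shared sites in both groups and does not match them by width. The median ZT0 width of shared isolated sites was 321 bp. The motif fraction was 43.7% with the stricter limit and 88.4% in the 200 bp around the midpoint. The median number of genes was 5 with all annotated genes, 1 within 100 kb and 5 within 500 kb. Within 5 kb of a start lay 24.8% of isolated sites. The median GC content of 1000 bp was 44.4%. These last values change by the construction of the setting. No paired analysis was possible because replicates are not told apart in the positions deposited, and leaving out a replicate was not possible for the same reason. Peak height and depth, which limit what can be said of a site listed at a single time, are unknown.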
